A study of Arabidopsis thaliana with 20 samples.

Results

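The 7 genes described here are encoded in the mitochondrial genome of Arabidopsis thaliana. They were picked by name, with earlier results of these data known. They are nad4, nad4L, nad7, ccb382, ccb203, matR and orfX, each measured by 1 probe set. They make up 7 of the 22746 tested probe sets of the Affymetrix ATH1 array, a probe set being the group of short probes that measures a transcript. Another 16 probe sets named a single other mitochondrial gene, over 9 genes.

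The arrays came from wild-type Col-0 plants with 9 to 10 leaves, grown in soil at 20 °C with a 9 h photoperiod. The whole root system and the rosette, called roots and shoots below, were collected separately. Each organ had 5 conditions, namely complete submergence in darkness for 7 h or 24 h, darkness in air for 7 h or 24 h, and light in air at 0 h. Each condition had 2 independent biological replicates, which gave 10 groups and 20 arrays. Submergence began 2 h into the light period, in complete darkness, so the submerged plants and the dark plants share the loss of light and differ in being under water. Values are log2 RMA values, the deposited measure of probe set brightness. A difference of 1 is a 2-fold change, and levels are compared only within a probe set.

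Mitochondria of flowering plants kept a small genome that encodes part of the respiratory chain and some of the machinery needed to assemble it. Complex I, the NADH dehydrogenase at which electrons enter the chain, is built from mitochondrion-encoded and nucleus-encoded subunits. Cytochrome c, which carries electrons to cytochrome c oxidase where oxygen is used, receives its heme through a maturation pathway that is also partly mitochondrion-encoded. Several of the transcripts hold group II introns, whose removal needs proteins called maturases.

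The genes nad4, nad4L and nad7 encode subunits of complex I, the first 2 of its membrane arm and the last of its peripheral arm. RefSeq names ccb382 as ccmFN1 and ccb203 as ccmFN2, both parts of the heme-attachment step of cytochrome c maturation. matR encodes a maturase and lies inside an intron of nad1. orfX is named mttB in RefSeq and encodes a membrane protein related to the TatC protein translocase. All 7 matched a RefSeq gene of the mitochondrion. In the order of coding genes nad4 stands next to orfX, and rpl2 stands between orfX and matR, whereas nad7, nad4L, ccb382 and ccb203 have no other of the 7 as a direct neighbour. Nuclear chromosome 2 of Arabidopsis carries a near-identical copy of much of the mitochondrial genome, so a signal cannot be assigned to one of the copies. The names of the matR and orfX probe sets end in _s_at, the array maker's mark for probes shared by several transcripts, and their values are the least certain in this respect. The labelling started from poly(A) tails, and in plant mitochondria polyadenylation marks RNA for decay. A probe set therefore reports the polyadenylated share of a mitochondrial transcript, which cannot be told apart from its total amount. In whole organs, fewer cells of a type, fewer transcripts per cell and fewer mitochondria cannot be told apart either.

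The arrays had similar medians, 6.13 to 6.41, and replicate arrays correlated at 0.9915 to 0.9958 over the tested probe sets. The organs matched their markers as far as these were measured. LHCB4.2, a chlorophyll-binding protein and the only one of 11 shoot markers with a probe set of its own, had 4.78 to 7.88 in roots and 12.25 to 13.57 in shoots. The summed level of PYK10 and EXPA7, the 2 of 9 root markers measured, was 10.07 to 13.35 in roots and 8.11 to 9.52 in shoots. The 4 light arrays stood apart from the others of their organ. In roots they correlated with the other arrays at 0.898 to 0.929, against 0.972 to 0.996 among those others, and in shoots at 0.846 to 0.883, against 0.964 to 0.996. The 25S ribosomal RNA control was 12.70 to 13.82 on the submerged and dark root arrays and 10.00 to 10.16 on the light root arrays. It was 12.99 to 13.60 on the submerged and dark shoot arrays and 11.22 to 11.68 on the light shoot arrays. The part of these differences in the comparisons with light was not tested.

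**Figure D1:**
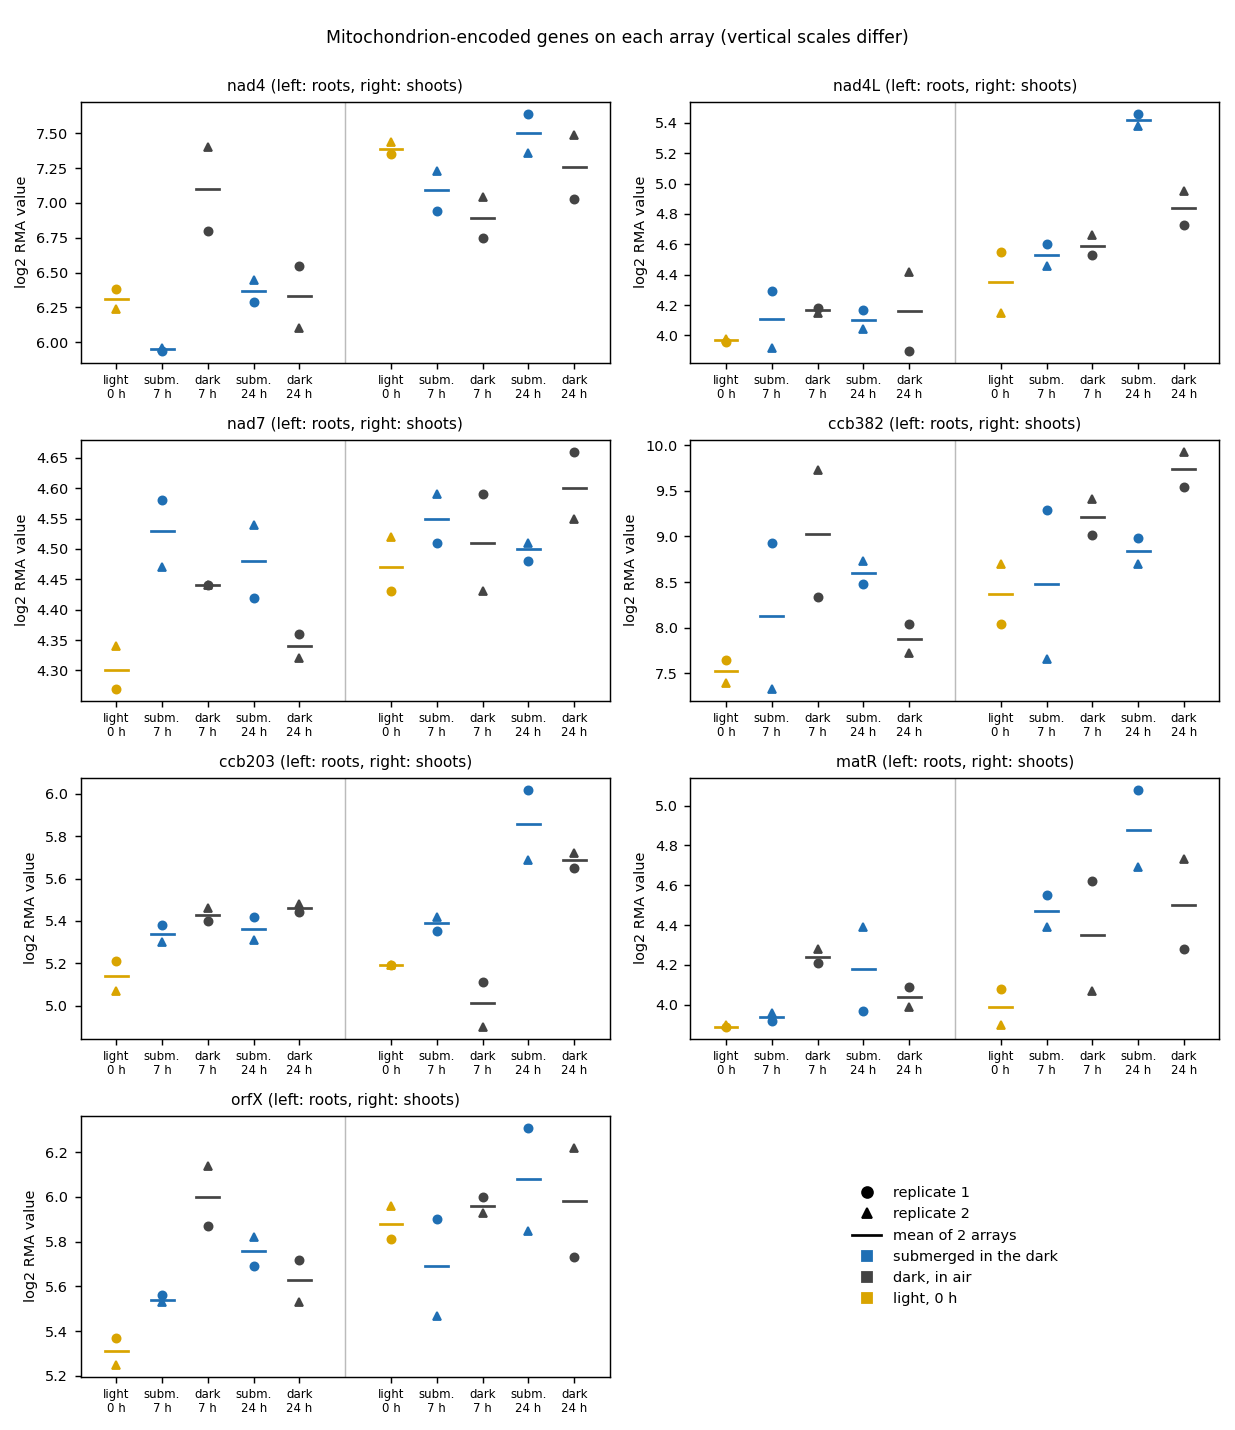
Log2 RMA value (vertical axis, scale set per gene) of each of the 7 mitochondrion-encoded genes on every array, by condition (horizontal axis) in roots and shoots. Circles and triangles are replicates 1 and 2 and bars are means of 2 arrays. nad4 is lowest in roots submerged for 7 h (5.94 and 5.96), nad4L is highest in shoots submerged for 24 h (5.46 and 5.38), and the replicates of ccb382 lie far apart in several groups.

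The 7 genes differed widely in brightness and in how much they moved. ccb382 spanned 7.33 to 9.93 and lay above the array median on all 20 arrays. nad4 spanned 5.94 to 7.64, orfX 5.25 to 6.31 and ccb203 4.90 to 6.02. nad4L (3.90 to 5.46), nad7 (4.27 to 4.66) and matR (3.89 to 5.08) were dim. They lay below the array's lower quartile, which was 4.35 to 4.45, on 11, 5 and 15 of the 20 arrays. A dim probe set understates a change, because background makes up much of its brightness. Only nad4, ccb382 and orfX were above 6 on 2 or more arrays.

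Agreement between replicates also differed. The SD between replicates, pooled over the 10 groups of 2, was 0.64 for ccb382, 0.23 for nad4, 0.21 for matR and 0.20 for orfX. It was 0.19 for nad4L, 0.10 for ccb203 and 0.06 for nad7. When the 10 groups were ordered by mean, most neighbours overlapped in their arrays, from 6 of 9 neighbouring pairs for nad4L to 8 of 9 for nad7, matR and orfX. In that order nad4 had 4 of the 5 root groups at the low end (means 5.95 to 6.37), then a gap of 0.52 without overlap, and then the shoot groups together with roots after 7 h of darkness (means 6.89 to 7.50). nad4L had all 5 root groups (3.97 to 4.17) below all 5 shoot groups (4.35 to 5.42), although root and shoot arrays overlapped where they met. The group means of nad7 covered 0.30 in all, and nad7 was called in none of 21 comparisons, with an unadjusted p under 0.05 in 1.

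Submergence was compared with darkness of the same length, which asks what being under water adds to being in the dark. nad4 fell in submerged roots at 7 h, ccb203 rose slightly in submerged shoots at 7 h, nad4L rose in submerged shoots at 24 h, and none of the 7 passed the test in roots at 24 h. Called means a p from limma, adjusted by Benjamini-Hochberg over all tested probe sets, under 0.05.

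nad4, a proton-pumping subunit of the complex I membrane arm, had 5.94 and 5.96 in roots submerged for 7 h, against 6.80 and 7.40 in roots kept dark for 7 h. Both submerged arrays lay below both dark arrays, and the submerged pair differed by far less than the dark pair. The fall was 1.15 on the log2 scale (SE 0.20, 2.22-fold, 95% interval -1.57 to -0.73, adjusted p = 0.0016, limma). This was 1 of the 7 genes called in that comparison, where 8.69% of all tested probe sets were called and 4.27% were called lower. The call held in every alternative fit, with changes of -1.45 to -0.85 when single arrays were left out. The size depended on the brighter dark array, since without replicate 2 of the dark roots the gap is the smallest of that range.

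The other genes moved less in roots at 7 h. orfX, the neighbour of nad4, had 5.56 and 5.53 in submerged roots, against 5.87 and 6.14 in dark roots, without overlap. Its change of -0.46 (SE 0.18) did not pass the test (adjusted p = 0.14, limma). matR had 3.92 and 3.96 against 4.21 and 4.28, also without overlap, and its change was -0.30 (adjusted p = 0.38). ccb382 had 8.93 and 7.33 against 8.34 and 9.73, so its replicates overlapped and its change of -0.90 had an SE of 0.50 (adjusted p = 0.31). nad4L, nad7 and ccb203 changed by -0.06, 0.09 and -0.09, and the interval of nad7 (-0.14 to 0.31) leaves room only for small changes of its measured brightness. The median change of the 7 was -0.30, against -0.04 over all tested probe sets.

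Plastid-encoded probe sets were compared on the same arrays. The median change of 69 plastid probe sets in submerged roots at 7 h was -0.41, with 1 called higher and 3 lower. Of all tested probe sets 8.69% were called there in either direction and 4.27% were called lower. Within the submerged pair, the plastid median of replicate 2 lay 1.17 below that of replicate 1, while nad4 differed by 0.02 between the same arrays. Within the dark pair it lay 0.83 higher in replicate 2, the array on which nad4 was also higher. The part of the plastid difference in the result for nad4 was not tested.

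At 24 h the root values of nad4 overlapped. They were 6.29 and 6.45 in submerged roots, against 6.55 and 6.10 in dark roots, a change of 0.04 (SE 0.20, adjusted p = 0.97, limma). With limma none of the 7 was called, 0 of them had an unadjusted p under 0.05, and the lowest adjusted p was 0.59, beside 3.22% of probe sets called at that time. The difference between the 24 h and the 7 h response of nad4 in roots was 1.19 (SE 0.28, adjusted p = 0.045), the only one of the 7 called in that comparison, in which 1.45% of probe sets passed. This call was lost in 11 of 20 fits that left out an array, in the fit of root arrays alone and in the fit without the light arrays (adjusted p up to 0.19). In shoots the 24 h and 7 h responses differed in none of the 7 by this test, with 1 at an unadjusted p under 0.05, beside 2.00% of probe sets.

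**Figure D2:**
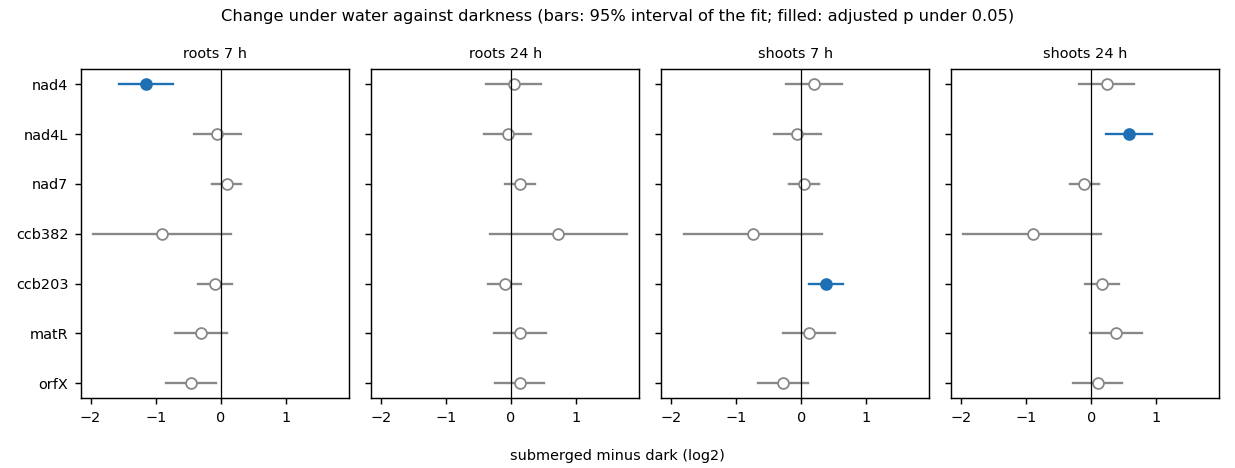
Change under water against darkness of the same duration (horizontal axis, submerged minus dark, log2) for the 7 genes in roots and shoots at 7 h and 24 h. Points are estimates from 2 arrays per group, bars are 95% intervals, and filled points passed an adjusted p of 0.05. nad4 stands at -1.15 in roots at 7 h, and at 0.04, 0.19 and 0.24 in the other panels.

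In shoots the same treatment left nad4 without a called change. Its values were 6.94 and 7.23 in submerged shoots at 7 h, against 6.75 and 7.04 in dark shoots, and the groups overlapped (change 0.19, adjusted p = 0.67, limma). The root response minus the shoot response at 7 h was -1.35 (SE 0.28, adjusted p = 0.0062), in a comparison where 7.68% of probe sets passed, and nad4 was the only one of the 7 called. This difference kept its call in every alternative fit. At 24 h the difference between the organs was -0.19 (adjusted p = 0.79), and limma called none of the 7 beside 6.86% of probe sets, with 2 at an unadjusted p under 0.05.

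ccb203, a subunit of the heme-attachment machinery, had 5.35 and 5.42 in shoots submerged for 7 h, against 5.11 and 4.90 in dark shoots. The groups did not overlap, and the change was 0.38 (SE 0.12, adjusted p = 0.047, limma), the only call among the 7 where 13.7% of probe sets were called. It was lost in 16 of 20 fits that left out an array, including each of the 4 arrays compared, and in 4 other fits. The dark shoots at 7 h were also the lowest of all 10 groups for ccb203. At 24 h the gene had 6.02 and 5.69 in submerged shoots, against 5.65 and 5.72 in dark shoots, with overlap (change 0.17, adjusted p = 0.47).

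nad4L, a small membrane-arm subunit of complex I, had 5.46 and 5.38 in shoots submerged for 24 h, against 4.73 and 4.95 in dark shoots. These submerged arrays were the brightest of all 20 for nad4L, and the rise was 0.58 (SE 0.17, adjusted p = 0.032, limma). It was the only call among the 7, where 11.9% of probe sets were called, and it was lost without any 1 of its 4 arrays (adjusted p up to 0.23). matR pointed the same way, with 5.08 and 4.69 against 4.28 and 4.73, but its groups overlapped (change 0.38, adjusted p = 0.24). ccb382 pointed the other way, with 8.98 and 8.70 against 9.54 and 9.93, and its change of -0.90 (SE 0.50) did not pass (adjusted p = 0.30).

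Darkness was then compared with the light arrays of 0 h. This comparison uses the dark arrays that also served as the baseline of the submergence comparison, and light arrays that stood apart in ribosomal RNA signal and overall correlation. At 7 h, darkness and the time of day cannot be told apart. The 24 h dark plants were harvested at the clock time of the light plants. At 24 h darkness still cannot be told apart from the time since the start. A difference between 24 h and 7 h of darkness mixes its length with the time of day. Large parts of the array were called, from 46.9% of probe sets in roots at 7 h to 52.8% in roots at 24 h.

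In roots at 7 h, nad4, ccb382 and orfX were higher in darkness, 3 of the 7, beside 46.9% of all probe sets called in either direction and 24.8% called higher. nad4 had 6.80 and 7.40 in dark roots, against 6.38 and 6.24 in light roots, a rise of 0.79 (SE 0.20, adjusted p = 0.0032, limma). orfX had 5.87 and 6.14 against 5.37 and 5.25, a rise of 0.70 (adjusted p = 0.0038). ccb382 had 8.34 and 9.73 against 7.64 and 7.39, a rise of 1.52 with an SE of 0.50 (adjusted p = 0.018). The changes of the 7 genes lay between 0.14 and 1.52, and the median change was 0.35, against 0.08 over all probe sets. All 3 calls rested on replicate 2 of the dark roots, without which the adjusted p was 0.082 for nad4, 0.051 for orfX and up to 0.27 for ccb382. For ccb382 the call was also lost without replicate 2 of the light roots and when limma fitted a trend in the variance robustly (adjusted p = 0.074).

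Several other measures moved in the same root arrays. Of the 69 plastid probe sets, 22 rose and 1 fell in dark roots at 7 h, with a median of 0.57. Of all tested probe sets 24.8% were called higher there and 22.1% lower. LHCB4.2 was 2.11 higher in dark roots at 7 h and 2.47 higher at 24 h, while both root markers were lower at both times. The actin probe sets had a 3′ minus 5′ difference of 3.34 to 3.79 on the submerged and dark root arrays and 4.25 to 4.32 on the light root arrays, a measure of RNA integrity and of labelling length. The same difference of the GAPDH probe sets ran the other way, at 0.48 to 0.88 on the submerged and dark root arrays and -0.03 to 0.28 on the light root arrays. The part of these in the rise of nad4, ccb382 and orfX was not tested.

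The values of nad4 in all root groups at 7 h can be set beside the light roots. Roots submerged for 7 h had 5.94 and 5.96, roots kept dark for 7 h had 6.80 and 7.40, and light roots had 6.38 and 6.24. The submerged roots thus lay below the light roots and the dark roots above them, and no 2 of these groups overlapped. After 24 h of darkness nad4 had 6.55 and 6.10, and the 24 h dark roots were lower than the 7 h dark roots by 0.77 (SE 0.20, adjusted p = 0.0094, limma). It was the only 1 of the 7 called there, beside 22.8% of probe sets. That call was lost without replicate 2 of the 7 h or of the 24 h dark roots (adjusted p up to 0.16).

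At 24 h, ccb203 was the only call in roots, with 5.44 and 5.48 in dark roots against 5.21 and 5.07 in light roots. The rise was 0.32 (SE 0.12, adjusted p = 0.036, limma), and it was lost without replicate 2 of the light roots or without either dark array (adjusted p up to 0.20). The background was 52.8%. The 7 changes lay between 0.02 and 0.36, with a median of 0.19 against 0.10 over all probe sets.

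In shoots at 7 h, nad4 fell, with 6.75 and 7.04 in dark shoots against 7.35 and 7.44 in light shoots. The change was -0.50 (SE 0.20, adjusted p = 0.046, limma), the only call among the 7 where 48.9% of probe sets passed. It was lost in 9 of 20 fits that left out an array and after centring each array on its median (adjusted p = 0.063). The darkness responses of the organs differed for nad4, by 1.29 (SE 0.28, adjusted p = 0.0013) for roots minus shoots at 7 h, and this held in every alternative fit. ccb203 also differed, by 0.47 (SE 0.17, adjusted p = 0.042), with 5.40 and 5.46 in dark roots and 5.11 and 4.90 in dark shoots, but its call was lost in 6 of 20 fits that left out an array. In that comparison 38.8% of probe sets were called. At 24 h limma called 39.6% of probe sets and none of the 7, of which 0 had an unadjusted p under 0.05.

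In shoots at 24 h, 4 of the 7 were higher in darkness, where 52.4% of probe sets were called and 27.0% were called higher. ccb203 had 5.65 and 5.72 in dark shoots, against 5.19 and 5.19 in light shoots, a rise of 0.50 (SE 0.12, adjusted p = 0.002, limma). The call held in every fit that left out an array or changed the scaling, but ccb203 does not pass the filter on low values and the rise is below a minimum change of 1. nad4L had 4.73 and 4.95 against 4.55 and 4.15, a rise of 0.49 (adjusted p = 0.021). matR had 4.28 and 4.73 against 4.08 and 3.90, a rise of 0.52 (adjusted p = 0.028). ccb382 rose by 1.37 (SE 0.50, adjusted p = 0.028), with 9.54 and 9.93 against 8.04 and 8.70. Each of the calls for nad4L, matR and ccb382 was lost without at least 1 of its own arrays, among them replicate 2 of the dark shoots in each case. The ccb382 call was also lost under that robust trend fit (adjusted p = 0.097), and the matR call with the shoot arrays fitted alone (adjusted p = 0.053). nad4 did not follow, with 7.03 and 7.49 against 7.35 and 7.44 and a change of -0.13 (adjusted p = 0.63). The median change of the 7 was 0.49, against 0.03 over all probe sets. ccb203 was also higher at 24 h than at 7 h of darkness in shoots, by 0.68 (SE 0.12, adjusted p = 0.00081), the only call among the 7 beside 18.4% of probe sets.

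**Figure D3:**
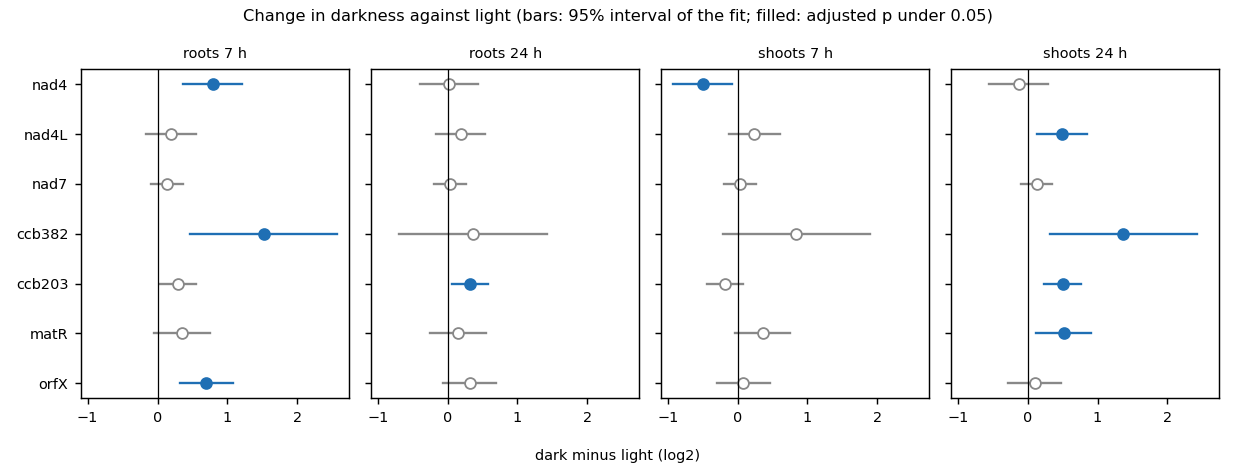
Change in darkness against light at 0 h (horizontal axis, dark minus light, log2) for the 7 genes in roots and shoots at 7 h and 24 h. Points are estimates from 2 arrays per group, bars are 95% intervals, and filled points passed an adjusted p of 0.05. nad4 is above 0 in roots at 7 h (0.79) and below 0 in shoots at 7 h (-0.50), and ccb382 has the widest intervals.

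Roots and shoots were compared under each condition. nad4 was lower in roots in 4 of 5 conditions and nad4L in 4 of 5, whereas nad7 was called in none of them. The exception for nad4 was 7 h of darkness, and for nad4L it was light. Between 48.7% and 59.1% of all probe sets were called between the organs, in each condition.

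nad4 had 6.38 and 6.24 in light roots, against 7.35 and 7.44 in light shoots, a difference of -1.08 (SE 0.20, adjusted p = 0.00013, limma). The difference was -1.14 after 7 h under water, -1.13 after 24 h under water and -0.93 after 24 h of darkness, with adjusted p of 0.0001, 0.00011 and 0.0007. After 7 h of darkness the organs overlapped, with 6.80 and 7.40 in roots against 6.75 and 7.04 in shoots (difference 0.21, adjusted p = 0.43). The calls in light and under water held in every alternative fit. That of 24 h of darkness did as well, except that it is below a minimum change of 1.

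For nad4L the difference between the organs was widest after 24 h under water. Roots had 4.17 and 4.04 there, against 5.46 and 5.38 in shoots, a difference of -1.32 (SE 0.17, 2.49-fold, adjusted p = 3e-06, limma). The call held in every alternative fit apart from the filter on low values, which nad4L does not pass. It was -0.68 after 24 h of darkness (adjusted p = 0.0026), lost without replicate 1 of the dark roots (adjusted p = 0.079). It was -0.43 in both 7 h conditions (adjusted p = 0.045 dark, 0.047 submerged), calls that were lost in 12 and 15 of 20 fits that left out an array. The root arrays of nad4L lay near or below the lower quartile in these comparisons, where RMA values are compressed.

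In light orfX was lower in roots, with 5.37 and 5.25 against 5.81 and 5.96 in shoots (-0.58, SE 0.18, adjusted p = 0.01, limma), so that 2 of the 7 were called there beside 59.1% (24.3% lower in roots). The orfX call was lost without replicate 2 of the light roots or of the light shoots (adjusted p up to 0.068). After 7 h of darkness ccb203 was higher in roots, by 0.42 (SE 0.12, adjusted p = 0.0076), and 2 were called beside 50.8%. That call for ccb203 was lost without replicate 2 of the dark shoots (adjusted p = 0.098) and under 2 other scalings (adjusted p up to 0.057). After 24 h of darkness ccb382 was lower in roots, with 8.04 and 7.72 against 9.54 and 9.93 in shoots (-1.86, SE 0.50, adjusted p = 0.0045), and it kept this call in every alternative fit. In that condition 3 of the 7 were called, all lower in roots, beside 48.7% (22.7% lower). The median of the 7 was -0.46, against 0.01 over all probe sets. All 7 were called there when the values were quantile-normalized again or centred on each array's median. Under these scalings 11134 and 11261 of the 22746 probe sets were called. Centring on nuclear genes gave 5 of the 7, beside 11111 of all probe sets.

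Under water matR was lower in roots at both times. It had 3.92 and 3.96 in roots submerged for 7 h, against 4.55 and 4.39 in shoots (-0.53, adjusted p = 0.028, limma), and 3.97 and 4.39 against 5.08 and 4.69 at 24 h (-0.70, SE 0.19, adjusted p = 0.0043). ccb203 was lower in roots after 24 h under water, with 5.42 and 5.31 against 6.02 and 5.69 (-0.49, adjusted p = 0.0025). In all, 3 of the 7 were called after 7 h under water beside 49.1% (22.8% lower), and 4 after 24 h beside 50.4% (23.3% lower). Each of these matR and ccb203 calls was lost without at least 1 of its own arrays. Centring each array on its median moved the median of all probe sets by more than 0.1 in several of these comparisons, to -0.18 after 7 h under water, so small differences between organs depend on the scaling.

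**Figure D4:**
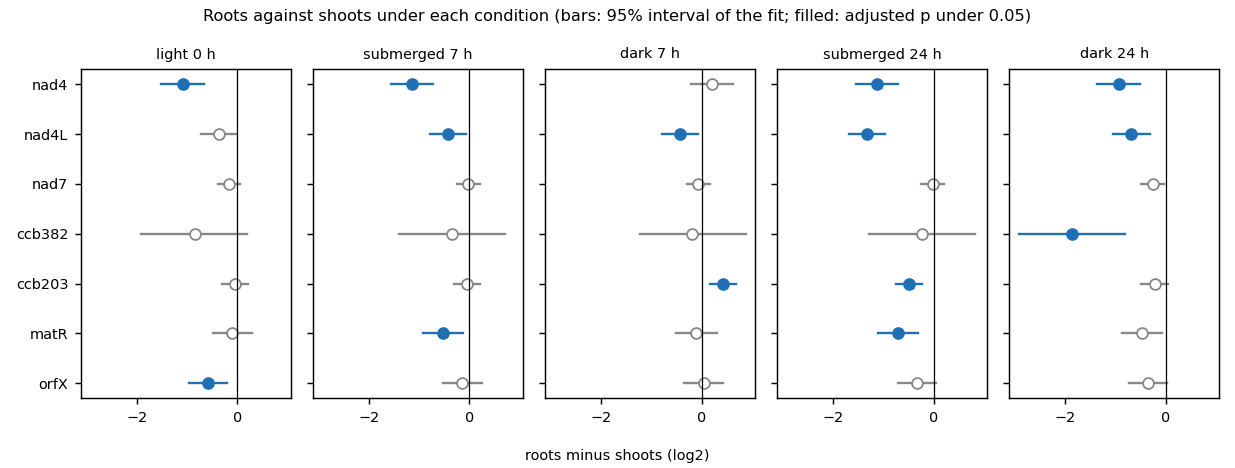
Difference between the organs (horizontal axis, roots minus shoots, log2) for the 7 genes in light, after 7 h under water or in darkness, and after 24 h under water or in darkness. Points are estimates from 2 arrays per group, bars are 95% intervals, and filled points passed an adjusted p of 0.05. nad4 is near -1 in 4 panels and at 0.21 after 7 h of darkness, and nad4L reaches -1.32 after 24 h under water.

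ccb382 had the widest spread between replicates. Its replicate differences correlated with those of plastid transcripts and, less closely, with those of the 25S ribosomal RNA control. In roots submerged for 7 h its replicates were 8.93 and 7.33, in shoots submerged for 7 h 9.29 and 7.66, and in roots dark for 7 h 8.34 and 9.73. The plastid median of replicate 2 was 1.17 lower, 0.39 lower and 0.83 higher than that of replicate 1 in these groups. Over the 10 groups the replicate difference of ccb382 had a Pearson correlation of 0.79 with that of the plastid median and 0.59 with that of the 25S control. The plastid and ccb382 differences had opposite signs in roots submerged for 24 h (-0.16 and 0.25) and dark for 24 h (0.18 and -0.33). For the other genes the correlation with the plastid median was 0.66 (orfX), 0.54 (nad4), 0.51 (nad4L), 0.41 (ccb203), 0.19 (matR) and -0.26 (nad7). Their correlation with the 25S control lay between -0.13 (nad4) and 0.44 (nad7). Each point shares its 2 arrays between the measures, and the correlations are given as a description. The part of such a difference between replicates in the comparisons above was not tested.

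**Figure D5:**
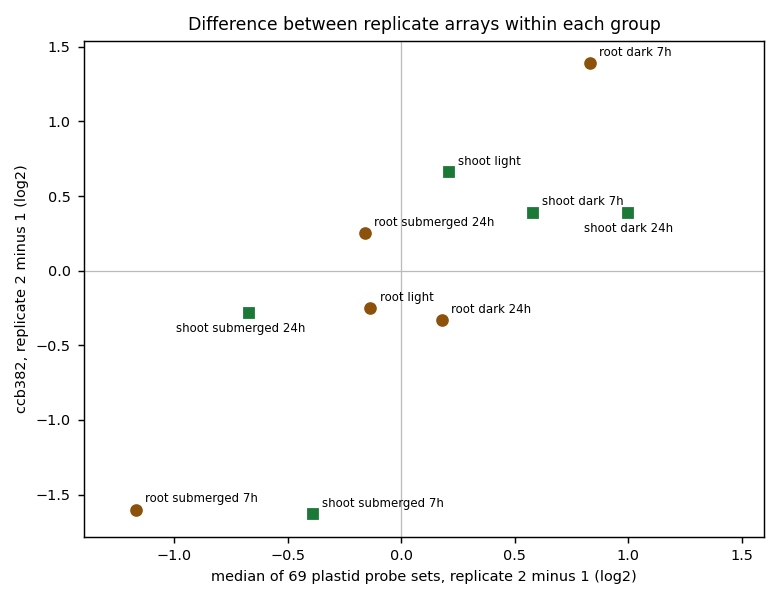
Difference between the 2 replicate arrays of each group (replicate 2 minus replicate 1, log2) for the median of 69 plastid probe sets (horizontal axis) and for ccb382 (vertical axis). Brown circles are root groups and green squares are shoot groups. ccb382 lies at -1.60 and -1.63 in the roots and shoots submerged for 7 h and at 1.39 in the roots dark for 7 h.

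The 7 genes varied together to a moderate degree. Over the 20 arrays the 21 pairs of genes had Pearson correlations of 0.27 to 0.79 with a median of 0.54, and over the 10 group means of 0.31 to 0.92. Within groups, over the 10 replicate differences, the median correlation was 0.15 and the range -0.37 to 0.67. Against the mean of all 7, orfX correlated at 0.879, matR at 0.839, ccb382 at 0.826, nad4 and nad4L each at 0.819, ccb203 at 0.596 and nad7 at 0.552, with each gene part of that mean. The probe set naming a single gene that was most like the mean was cox1 (0.915), the mitochondrion-encoded core subunit of cytochrome c oxidase. It was followed by AT1G51580 (0.906), plastid-encoded accD (0.878), AT2G07708 (0.876) and AT1G72490 (0.866). AT2G07708 lies on the nuclear chromosome that carries the mitochondrial copy, and its probe set name ends in _s_at. Whether its signal is separate from the mitochondrial one was not tested. All these values share the same 20 arrays, and among them the same light arrays.

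Other mitochondrion-encoded genes were sorted by role. Of the 16 probe sets, cox1 fell in roots submerged for 7 h, as nad4 did, with 6.27 and 5.51 in submerged roots against 6.72 and 6.94 in dark roots (-0.94, SE 0.23, adjusted p = 0.018, limma). None of the other 15 was called by limma at that time, and none of the 16 in roots at 24 h, where 2 had an unadjusted p under 0.05. The cox1 response also differed between roots and shoots at 7 h, by -1.19 (adjusted p = 0.034). The 2 submerged root arrays lay further apart for cox1 than for nad4, which had 5.94 and 5.96. The alternative fits were read for the 7 genes only, so the calls for cox1 and the other listed genes were not tested in this way. Among the 12 complex I probe sets, 1 of 2 for nad5 was higher in submerged shoots at 7 h (0.38, adjusted p = 0.049) and at 24 h (0.60, adjusted p = 0.003), and 1 of 7 for nad1 was higher at 24 h (0.54, adjusted p = 0.0088). The other 6 nad1 probe sets were not called in any submergence comparison.

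In darkness 5 of the 16 rose and none fell in roots at 7 h, in roots at 24 h and in shoots at 24 h, while 2 rose and 2 fell in shoots at 7 h. Of all tested probe sets 24.8%, 27.8% and 27.0% were called higher in the first 3 of these comparisons. cox1 rose by 1.33 and 0.89 in dark roots at 7 h and 24 h and by 1.51 in dark shoots at 24 h (adjusted p = 0.00012, 0.0037 and 2.1e-05). Between the organs 8 of the 16 were lower in roots after 24 h under water and none was higher, where 23.3% of all probe sets were lower. In light 4 were lower in roots and none was higher, where 24.3% of all probe sets were lower. After 7 h of darkness 2 were higher and 1 was lower, while 6517 of the 22746 probe sets were called higher and 5042 lower. After 24 h of darkness 1 was higher and 3 were lower, where 22.7% of all probe sets were lower. After 7 h under water none was higher and 2 were lower, where 22.8% of all probe sets were lower. Another 12 probe sets name several genes, at least 1 of them mitochondrial. In dark roots 9 of these rose and 1 fell at 7 h, and 4 rose and 1 fell at 24 h. In dark shoots none rose and 1 fell at 7 h, and 6 rose and none fell at 24 h. Between the organs none was higher in roots. Lower in roots were 4 in light, none and 7 after 7 h and 24 h of darkness, and 2 and 5 after 7 h and 24 h under water.

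Nucleus-encoded complex I subunits were taken from a list of 35 genes, of which 22 were measured. AT5G47890 was the only one called in submerged roots at 7 h, where it rose (0.67, adjusted p = 0.022, limma). In the other 3 submergence comparisons limma called none of the 22, and 2, 1 and 7 had an unadjusted p under 0.05 in roots at 24 h, shoots at 7 h and shoots at 24 h. In dark roots 1 rose and 14 fell at 7 h (median -0.38), and none rose and 12 fell at 24 h (median -0.48), while 22.1% of all probe sets were called lower at 7 h and 5685 of the 22746 at 24 h. Dark shoots were more mixed. At an unadjusted p under 0.05 (limma), 6 were higher and 5 lower at 7 h, and 5 higher and 10 lower at 24 h. The same counts in dark roots were 2 and 15 at 7 h, and 0 and 13 at 24 h. In light 18 of the 22 were higher in roots than in shoots and none was lower (median 0.56), opposite in sign to nad4. Of all probe sets 34.9% were called higher there. At an unadjusted p under 0.05 (limma), 19 were higher and 0 lower in roots in light. The counts were 6 and 1 after 7 h of darkness, and 10 and 0 after 24 h of darkness. They were 14 and 0 after 7 h under water, and 12 and 2 after 24 h. The unadjusted share over all probe sets was not counted.

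Of 5 listed nuclear genes for cytochrome c and its maturation, 3 were measured. CYTC-2, a cytochrome c, fell in darkness, with changes of -3.38 and -3.63 in roots and -3.15 and -2.45 in shoots at 7 h and 24 h (adjusted p at most 2.6e-10, limma). CCMH, which acts with the ccmF proteins in heme attachment, rose by 0.66 and 0.96 in dark roots and by 1.59 and 1.95 in dark shoots at 7 h and 24 h (adjusted p at most 0.00039), and fell by 0.52 in submerged shoots at 24 h (adjusted p = 0.012, limma). Of 18 listed organelle RNA polymerases and mitochondrial splicing and decay factors, 7 were measured. AT5G14580 was the only one called under water, where it fell by 0.48 in roots at 7 h (adjusted p = 0.048).

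Alternative respiration, the enzymes that bypass complex I or the cytochrome pathway, had 5 of 13 listed genes measured. NDB1 and NDB2, type II NAD(P)H dehydrogenases, fell in submerged shoots, with changes at 7 h and 24 h of -0.48 and -0.57 for NDB1 and -0.93 and -0.72 for NDB2 (adjusted p at most 0.023, limma). None of the 5 was called by limma in submerged roots, where 2 at 7 h and 1 at 24 h had an unadjusted p under 0.05. In dark roots NDB2 also fell at 7 h and 24 h, with changes of -1.20 and -1.49 (adjusted p at most 7.6e-06), whereas NDB1 rose by 0.68 and 0.83 (adjusted p = 0.00044 and 4.9e-05).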

How the data were processed

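RNA of 20 Arabidopsis samples was measured on Affymetrix ATH1 arrays. The authors deposited log2 values per probe set and array, made with RMA in the affy package per the submitters' processing notes, which give no version. RMA subtracts background, quantile-normalizes and summarises probes, so dim probe sets show compressed changes. No genome build was named and no coordinates are given.

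Of 22810 probe sets, 64 controls were left out and 22746 were tested. Names came from the platform's probe table, in which 13513 tested probe sets named 1 gene, 503 several and 8730 none. Mitochondrial and plastid genes were identified through the RefSeq annotation (TAIR10.1) by symbol or synonym, because the table holds none of the locus prefixes on which the lists had been based.

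Group means were fitted per probe set in limma (3.58.1, R 4.3.3) over 10 groups of 2 arrays, with 10 residual and 7.04 prior degrees of freedom, and 21 contrasts were tested with eBayes. P-values are two-sided and adjusted by Benjamini-Hochberg within a comparison. The procedure was tested on simulated arrays. The genes and gene lists were chosen with earlier results of these data known. The rule for naming took all 7 genes, the 5 probe sets most like their mean, and at most 4 called members of a list per comparison. The values of cox1, CYTC-2 and the other list genes are named under it.

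The alternatives were repeated quantile normalization, centring on array medians or on nuclear genes, a filter on low values, probe sets of 1 gene only, arrays of 1 organ only, a variance trend with robust estimation, a minimum log2 change of 1, the replicate number as a block, and each array left out in turn. Fits without the light arrays were added after seeing the data. The number of arrays, 2 per group, limits the precision.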

Additional observations from a re-analysis of the deposited data

Results flagged for a closer look

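Differences between responses passed the test for nad4 and ccb203. The submergence response of nad4 at 7 h differed between roots and shoots by -1.35 (SE 0.28, adjusted p = 0.0062, limma), with both submerged root arrays below both dark root arrays and overlapping arrays in shoots. Its response to 7 h of darkness differed between roots and shoots by 1.29 (adjusted p = 0.0013), with both dark root arrays above both light root arrays and both dark shoot arrays below both light shoot arrays. These share the dark arrays of 7 h, and the second also rests on the light arrays that stood apart.

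The response of ccb203 to 7 h of darkness differed between roots and shoots by 0.47 (SE 0.17, adjusted p = 0.042, limma). This ccb203 call was lost in 6 of 20 fits without 1 array, under repeated quantile normalization and in the trend and robust fit. The submergence response of nad4 in roots differed between 24 h and 7 h by 1.19 (SE 0.28, adjusted p = 0.045), and this call was lost in 11 of 20 fits without 1 array.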

How the results depend on the processing

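Of 32 calls for the 7 genes over 21 comparisons, 11 held in every fit that tested the gene, leaving aside the minimum log2 change of 1. None reversed, 21 were lost when at least 1 of the 20 arrays was left out, and 11 were lost in another such setting. Of those 11 that held, 7 also passed the low filter and the minimum change. The low filter removed nad4L between organs after 24 h under water, and both criteria removed ccb203 in dark shoots at 24 h and for 24 h against 7 h of darkness in shoots. The minimum change removed nad4 between organs after 24 h of darkness (-0.93). A group left with 1 array borrowed its spread from the other groups. The cause of the lost calls was not tested, apart from filters that remove the genes or ask for a larger change. With 1 array left out the number of the 7 called ranged from 0 to 1 in shoots submerged for 7 h and for 24 h, from 0 to 4 in dark roots at 7 h, from 0 to 1 at 24 h, from 0 to 2 in dark shoots at 7 h and from 1 to 4 at 24 h. Between the organs it ranged from 1 to 3 in light, 0 to 2 and 2 to 5 in darkness at 7 h and 24 h, and 1 to 3 and 2 to 5 under water. It ranged from 0 to 1 for the organ difference of the submergence response at 24 h, 1 to 3 for that of darkness at 7 h, 0 to 2 for 24 h against 7 h of darkness in roots, and 0 to 1 for the difference of submergence responses over time in roots. It stayed at 1 for submerged roots at 7 h, for the organ difference there and for 24 h against 7 h of darkness in shoots.

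Scaling moved some counts. Centring on array medians gave 2 calls in dark roots at 24 h, 0 in dark shoots at 7 h, and 4, 1 and 7 between organs in light and in darkness at 7 h and 24 h. Repeated quantile normalization gave 2 in dark roots at 24 h, 1 and 7 between organs in darkness at 7 h and 24 h, and 1 for the organ difference of darkness at 7 h. Centring on nuclear genes gave 5 between organs after 24 h of darkness. In that comparison median centring, quantile normalization and nuclear centring called 11261, 11134 and 11111 of the 22746 probe sets, against 11068 in the main fit. Median centring moved the median of all probe sets from 0.08 to 0.14 and from 0.10 to 0.24 in dark roots at 7 h and 24 h. The trend and robust fit gave 0 in shoots submerged for 7 h, 0 in dark roots at 24 h and 1 for the organ difference of darkness at 7 h, and it also lost ccb382 in dark roots at 7 h (adjusted p = 0.074) and in dark shoots at 24 h (adjusted p = 0.097). Shoots submerged for 7 h had 0 calls with arrays of 1 organ, with probe sets of 1 gene and without the light arrays. Arrays of 1 organ also lost matR in dark shoots at 24 h (adjusted p = 0.053). The change of the submergence response over time in roots had 0 calls with arrays of 1 organ and without the light arrays.

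The low filter kept 3 of the 7 genes, which left 0 calls in submerged shoots at both times, 0 in dark roots at 24 h, 1 in dark shoots at 24 h, 0, 1 and 1 between organs in darkness at 7 h and under water at 7 h and 24 h, 1 for the organ difference of darkness at 7 h and 0 for 24 h against 7 h of darkness in shoots. A minimum log2 change of 1 left 0 in submerged shoots at both times, 1 and 0 in dark roots and 0 and 1 in dark shoots at 7 h and 24 h, 1, 0, 1, 1 and 2 between organs in light, darkness at 7 h and 24 h and under water at 7 h and 24 h, 1 for the organ difference of darkness at 7 h, and 0 for 24 h against 7 h of darkness in either organ.

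The replicate numbers were not treated as pairs in the main fit. The deviations of same-numbered arrays from their group means correlated at -0.14 to 0.16 over 45 pairs of groups, above 0.1 in 5 and below -0.1 in 4. Such weak correlations cannot show whether same-numbered samples came from the same plants or batch. With the replicate block 1 of the 7 was called between organs after 7 h of darkness, where nad4L was lost (adjusted p = 0.053), and nad4L was also lost after 7 h under water (adjusted p = 0.054). The block changed no other call.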
